A study of Homo sapiens with 8 samples.

Results

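Oxidative phosphorylation genes were followed by their symbols through 8 libraries of RNA from a ribosome pull-down of MDA231-BrM2 cells. MDA231-BrM2 is a derivative of the MDA-MB-231 human breast cancer line that metastasizes to the brain. The symbol rule took the NDUF genes, counted under complex I, SDHA to SDHD of complex II and the UQCR genes of complex III. It also took the COX5 to COX8 genes of complex IV and the ATP5 genes of complex V. From the mitochondrial genome it took the MT-ND, MT-CO, MT-ATP and MT-CYB genes. It matched 119 of 57445 rows of the deposited count table. Of these, 86 rows were nuclear genes, 13 were the mitochondrially encoded genes, 19 carried symbols that mark processed copies and 1 was a readthrough entry. A filter at a mean count of 10 over the 8 libraries left 76 nuclear members, all 13 mitochondrially encoded members and 1 copy (ATP5EP2) for testing. The nuclear members tested were 37 of complex I, 4 of complex II, 9 of complex III, 9 of complex IV and 17 of complex V. Complexes were assigned by symbol alone here and below, and NDUFA4 was counted under complex I.

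Each of 4 groups had 2 libraries. Control cells, which carry a control hairpin, were kept in monoculture or placed for 24 h with astrocytes at a ratio of 1 to 1. Cells carrying hairpin 1 or hairpin 2 against Cx43, a gap junction protein whose gene is GJA1, were placed in the same coculture. Cx43-depleted cells grown alone are not among the groups, so hairpin differences are known in coculture only. Ribosomes of the cancer cells were pulled down with an antibody against GFP, a method known as translating ribosome affinity purification (TRAP), so the 8 libraries share the tagged ribosomes. None of the 8 is an input or mock pull-down, so RNA carried along without a tagged ribosome was not measured. Mitochondrially encoded messengers are translated on mitochondrial ribosomes inside the organelle. How they entered the pull-down, and from which cells, was not tested. The labels do not state the astrocytes' species. The replicates are called independent, but separate cultures are not mentioned, so the p-values measure the spread between these libraries, which may be technical.

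The respiratory chain passes electrons from NADH through complex I, or from succinate through complex II, by ubiquinone to complex III and by cytochrome c to complex IV, where oxygen is reduced. Complexes I, III and IV pump protons, and complex V, the ATP synthase, uses the gradient to make ATP. Complex II is built from nuclear genes only, whereas the other complexes join nuclear subunits, which are translated on cytosolic ribosomes and imported, to subunits translated inside the organelle on mitochondrial ribosomes. The nuclear subunits are known targets of NRF1, GABP and YY1. The mitochondrial genome is transcribed as long precursors from both strands, which are cut into single messengers and degraded by enzymes that nuclear genes encode.

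The libraries held 38219702 to 48997555 gene counts each, and GJA1 fell in all depleted libraries. GJA1 stood at 51.1 and 46.3 normalised read counts per 1000000 (CPM) in monoculture, 65.9 and 64.7 in the control coculture, 27.8 and 27.8 with hairpin 1, and 31.7 and 33.8 with hairpin 2, a log2 difference of -1.11 (SE 0.06, adjusted p = 7.89e-06) between depleted and control cocultures. Some libraries stood apart. Non-unique alignments were 14.2% to 26.1% of all entries and most frequent in control coculture library 1. Library 2 of hairpin 1 had the lowest level of 66 of the 76 tested nuclear members, and monoculture library 2 had the highest level of 55. Markers of other cells moved too: the 10 astrocyte markers summed to 188 CPM in both monoculture libraries, 218 and 221 in the control coculture, and 183 to 189 in the depleted cocultures. Of the 7 tested, 2 were called higher in coculture, GFAP (log2 difference 0.62, adjusted p = 0.00166) and SLC1A3 (0.89, adjusted p = 0.00203). On depletion 2 were called lower, SLC1A3 and GLUL. Both depletion calls were lost without either library of the control coculture or of hairpin 2, and with the replicate numbers in the fit. GJB6 and S100B stayed below the CPM that 3 counts are worth in the smallest library. The 5 fibroblast markers summed to 641 to 1038 CPM in monoculture, 728 to 782 in the control coculture and 411 to 485 in the depleted cocultures. Of 4 tested, 1 was called higher in coculture. On depletion 2 fell, COL1A1 (-0.74, adjusted p = 0.0241) and COL1A2 (-0.68, adjusted p = 0.0367). These 2 calls were also lost without either library of the control coculture or of hairpin 2, and with the replicate numbers in the fit. Over all tested genes 8.74% were called higher in coculture and 5.85% lower on depletion. The 10 markers of the MDA-MB-231 line summed to 5530 to 5877 CPM in monoculture, 6124 to 6259 in the control coculture and 5110 to 5506 in the depleted cocultures. Of the 10, 2 were called higher in coculture and 3 lower on depletion, against the same shares. Of 3 neuron, 2 oligodendrocyte and 2 endothelial markers tested, 1 endothelial marker, KDR, was called higher in coculture and 0 were called on depletion. KDR kept its call under 5 of 9 other settings. The 7 microglial markers summed to at most 1.70 CPM, and 5 of them stayed below that same level of 3 counts. CSF1R, the 1 tested, rose in coculture (1.16, adjusted p = 0.00852). Its call was lost without either monoculture library or control coculture library 1. The part of these markers' cells in the results below was not tested.

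Summed over all 86 nuclear and 13 mitochondrial rows, the mitochondrially encoded messengers gained on the nuclear ones in the control coculture by an amount near the spread between replicates. The nuclear rows summed to 10128 and 11666 CPM in monoculture, 8392 and 11076 in the control coculture, 9111 and 6927 with hairpin 1, and 9771 and 9243 with hairpin 2. The mitochondrially encoded members summed to 6041 and 5732 CPM in monoculture, 7295 and 6830 in the control coculture, 6099 and 6974 with hairpin 1, and 5924 and 6216 with hairpin 2. The nuclear sums overlapped between control monoculture and coculture, whereas both mitochondrial sums were higher in the control coculture than in monoculture. The ratio of the mitochondrial to the nuclear sum was 0.596 and 0.491 in monoculture, 0.869 and 0.617 in the control coculture, 0.669 and 1.01 with hairpin 1, and 0.606 and 0.672 with hairpin 2. On the log2 scale the ratio was 0.44 higher in the control coculture than in monoculture, against a replicate SD of 0.29 pooled over the groups, and the difference was 0.19 without control coculture library 1. Between depleted and control cocultures the ratio differed by -0.02, well under that SD, and it ranged from -0.26 to 0.23 when single libraries were left out. In such bulk libraries less messenger per cell and a changed mix of cells or of captured RNA cannot be told apart.

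**Figure D1:**
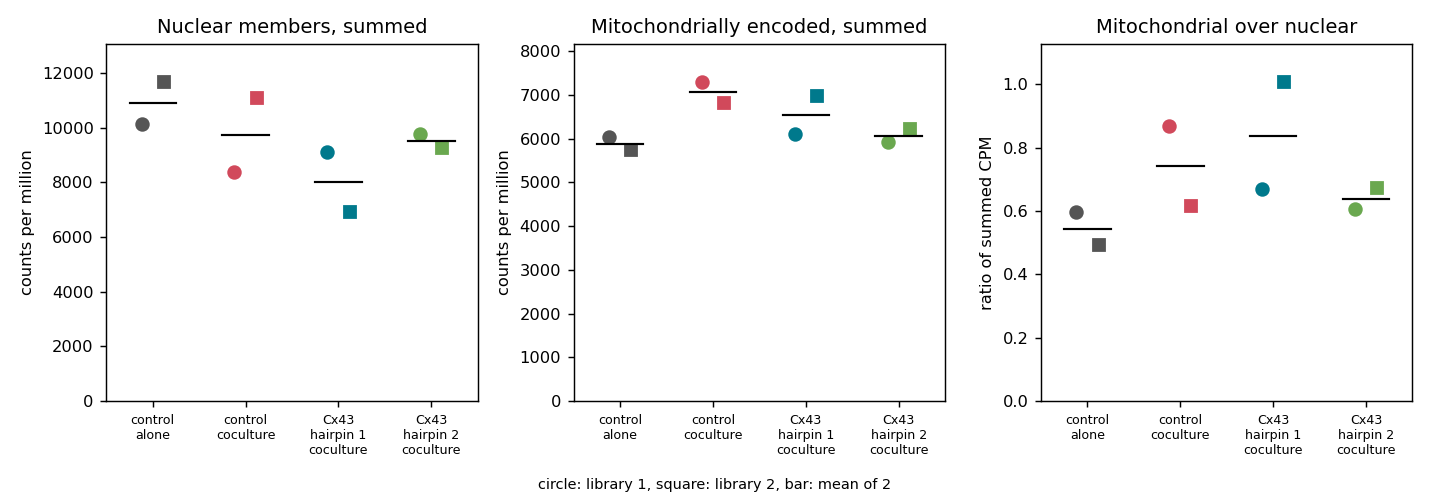
Summed CPM of all 86 nuclear rows (left), of the 13 mitochondrially encoded members (middle), and the ratio of both sums (right), by group, with each library as a point and the mean of 2 as a bar. Both mitochondrial sums of the control coculture, 7295 and 6830 CPM, lie above those in monoculture, while the nuclear sums of hairpin 1, 9111 and 6927 CPM, lie 1 on each side of the lower control coculture library.

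All 13 mitochondrially encoded members had a positive log2 difference between control coculture and control monoculture, and 3 of them rose beyond the test threshold: MT-ND2 (complex I), MT-ATP6 (complex V) and MT-CYB (the 1 mitochondrially encoded subunit of complex III). The share called higher among all tested genes was 8.74%. The members' median log2 difference was 0.25, beside -0.00 over all tested genes. In 10 of the 13 both coculture libraries lay above both monoculture libraries, against 30.0% of all tested genes. These are differences in pulled-down RNA, and whether levels inside the cancer cells changed was not tested.

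MT-ND2, a membrane subunit of complex I, stood at 743 and 710 CPM in monoculture, 1027 and 970 in the control coculture, 882 and 965 with hairpin 1, and 878 and 930 with hairpin 2. All 6 coculture libraries lay above both monoculture libraries. The log2 difference between control coculture and control monoculture was 0.46 (SE 0.07, adjusted p = 0.00518), a rise of 1.37 times. MT-ATP6, the proton channel subunit of the ATP synthase, had 350 and 333 CPM in monoculture and 446 and 428 in the control coculture (log2 difference 0.36, SE 0.08, adjusted p = 0.026). MT-CYB had 448 and 426 CPM in monoculture and 554 and 519 in the control coculture (log2 difference 0.30, SE 0.07, adjusted p = 0.0324). The groups did not overlap for any of the 3 genes. MT-ND2 kept its call in 7 of 8 fits that each left out 1 library and missed it without monoculture library 2 (adjusted p = 0.0511). MT-ATP6 and MT-CYB kept theirs only without 1 of the hairpin 1 libraries; without any single other library their adjusted p reached up to 0.147 and 0.201.

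The other 10 mitochondrially encoded members did not pass the test in coculture. MT-ND4, the most abundant member per length at 1045 CPM per kb, had 1395 and 1301 CPM in monoculture and 1748 and 1609 in the control coculture (log2 difference 0.32, adjusted p = 0.0773). MT-CO1, the catalytic core of complex IV, had 930 and 891 CPM in monoculture and 1187 and 1028 in coculture (0.28, adjusted p = 0.152), and MT-CO2 and MT-CO3 had log2 differences of 0.15 each. The smallest differences were those of MT-ND5 (0.03) and MT-ND1 (0.04), both complex I subunits, whose groups overlapped. Levels per length ran from 121 CPM per kb for MT-ND3 to that of MT-ND4, although the genes, MT-ND6 apart, come from 1 strand's precursor.

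**Figure D2:**
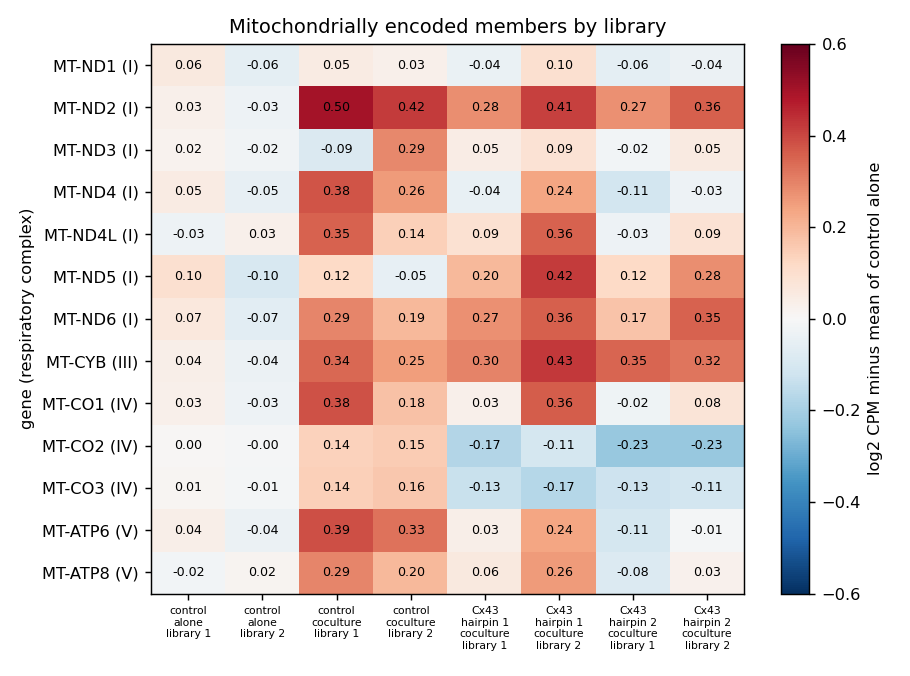
Log2 CPM of the 13 mitochondrially encoded members in each library, less the mean of the control monoculture, with the respiratory complex in brackets. MT-ND2 and MT-CYB are above that mean in all 6 coculture libraries, and MT-CO2 and MT-CO3 are above it in both control cocultures and below it in all 4 depleted libraries.

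With Cx43 depleted, 3 mitochondrially encoded members fell against the control coculture: MT-CO2 and MT-CO3, the core subunits of cytochrome c oxidase beside MT-CO1, and MT-ATP6. Called lower were 5.85% of all tested genes. MT-CO2 stood at 560 and 566 CPM in the control coculture, 451 and 473 with hairpin 1, and 435 and 435 with hairpin 2 (log2 difference -0.33, SE 0.05, adjusted p = 0.00721). MT-CO3 stood at 573 and 581 CPM in the control coculture, 474 and 462 with hairpin 1, and 476 and 482 with hairpin 2 (-0.29, SE 0.05, adjusted p = 0.0122). MT-ATP6 went from 446 and 428 CPM in the control coculture to 349 and 403 with hairpin 1, and 317 and 339 with hairpin 2 (-0.32, SE 0.07, adjusted p = 0.029). No depleted library reached a control coculture library in these 3 genes, and in 5 of the 13 members in all, against 18.1% of tested genes. The median log2 difference of the 13 members was -0.13, beside -0.01 over all tested genes, and MT-ND5 had the highest (0.22, adjusted p = 0.181). Here too, whether levels inside the cancer cells changed was not tested.

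By hairpin, MT-CO2 and MT-CO3 fell with each of the 2 hairpins, and MT-ATP6 fell with hairpin 2 (-0.41, SE 0.08, adjusted p = 0.0286), its value with hairpin 1 being -0.22 (adjusted p = 0.143). Called among all tested genes were 7.82% with hairpin 1 and 4.16% with hairpin 2. These calls of single hairpins were all lost without either control coculture or either hairpin 2 library (adjusted p up to 0.316), all but that of MT-CO2 with hairpin 2 also without monoculture library 1, and that of MT-CO3 with hairpin 1 also without hairpin 1 library 2. Between the hairpins none of the 76 nuclear and 13 mitochondrially encoded members was called by DESeq2 or by edgeR with the low-count filter. The share of all tested genes called in that edgeR fit was 0.0316%. An unadjusted p under 0.05 in edgeR was reached by 5 nuclear and 1 mitochondrially encoded members, and by 1084 of all 15806 tested genes. Without the filter edgeR did call nuclear members, as given in the last section, and 1.01% of all tested genes. The comparison of the depleted with the control cocultures shares its control libraries with that of coculture and monoculture, so their opposite signs are not independent. All 3 depletion calls were lost without either library of the control coculture, and those of MT-ATP6 and MT-CO3 also without either library of hairpin 2, of MT-CO2 without its library 2 (adjusted p up to 0.0777 for MT-CO2, 0.124 for MT-CO3 and 0.150 for MT-ATP6). An offset for transcript length, fitted in each library to all tested genes with a length, left 0 of the 13 members called, with a median of -0.01. From library 1 to 2 the 13 members differed by medians of -0.09 in the control coculture and 0.14 in hairpin 1. Genes outside the members of up to 800 nt differed by 0.31 and -0.32, so whether this offset suits the 13 members was not tested.

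Against control monoculture, depleted cocultures had MT-CYB (log2 difference 0.35, SE 0.06, adjusted p = 0.00946), MT-ND2 (0.33, SE 0.06, adjusted p = 0.0121) and MT-ND6 (0.29, SE 0.07, adjusted p = 0.0313) higher and MT-CO2 lower (-0.18, SE 0.05, adjusted p = 0.0452). The background was 10.8% called higher and 6.34% called lower. MT-CYB stood at 536, 587, 556 and 546 CPM in the 4 depleted libraries, against 554 and 519 in the control coculture, so depleted and control cocultures overlapped, with a log2 difference of 0.05 (SE 0.06). MT-CO2 went the other way, from 511 and 507 CPM in monoculture to 435 to 473 in the depleted libraries. All 4 calls were lost without either monoculture library, and those of MT-ND2 and MT-ND6 also without hairpin 2 library 2. That of MT-CO2 was lost without any library outside hairpin 1, and was kept under only 4 of 9 other settings. It was lost with upper-quartile scaling, without the low-count filter, with only the groups compared and with the replicate numbers in the fit. With the length offset MT-CO2 had the opposite sign (0.069), and whether that offset suits these members was not tested.

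Neighbouring mitochondrial genes share bases, which bears on their counts. MT-ATP8 lies on chromosome M at 8366 to 8572 of GRCh38, plus strand, and MT-ATP6 starts inside it. The whole MT-ATP8 gene, read from the GENCODE 29 transcripts, is printed to show how much of it is its own; capitals mark the 46 bases it shares with MT-ATP6.
MT-ATP8: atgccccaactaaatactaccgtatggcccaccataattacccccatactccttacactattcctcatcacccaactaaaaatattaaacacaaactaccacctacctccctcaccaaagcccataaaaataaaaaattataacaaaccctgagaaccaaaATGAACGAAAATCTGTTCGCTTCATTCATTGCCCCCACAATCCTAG
Reads on shared bases can be counted for neither gene, and 2.63% to 3.20% of all entries in the table were ambiguous. MT-ND4L and MT-ND4 share 7 bases and MT-ATP6 and MT-CO3 share 1. MT-ATP8 had 40.3 CPM on average and MT-ATP6 had 371, or 195 and 544 CPM per kb, and both had positive coculture differences (0.25 and 0.36) and negative depletion differences (-0.18 and -0.32). MT-ND6 is on the minus strand, next to MT-ND5, and the kit does not mark strand. The 3 nuclear copies of mitochondrial genes that passed the filter summed to 7.84 to 10.4 CPM, with the highest sums in control coculture library 1 and hairpin 1 library 2, which also had the highest mitochondrial sums.

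Nuclear members varied between replicates with their length. They are short, with a median transcript of 750 nt beside 2601 nt over all tested genes with a length, and 63 of 82 with a length reach at most 1200 nt. In the control coculture the 42 nuclear members of up to 800 nt were higher in library 2 than in library 1 by a median of 0.50 on the log2 scale, and in hairpin 1 they were lower in library 2 by a median difference of -0.48. Genes outside the members showed the same order: those up to 800 nt differed by medians of 0.31 and -0.32, and those over 5000 nt by -0.13 and 0.17. The 13 mitochondrially encoded members, with a median length of 784 nt, had medians of -0.09 and 0.14, opposite in sign to those of the short nuclear members. Across 75 nuclear members the Spearman correlation of length and replicate difference was -0.51 in monoculture, -0.61 in the control coculture, 0.46 in hairpin 1 and 0.42 in hairpin 2. Across the 13 mitochondrially encoded members it was -0.59, -0.31, 0.35 and -0.16, the same sign as for the nuclear members in all groups but hairpin 2. These correlations share libraries and depth and are given as a description.

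**Figure D3:**
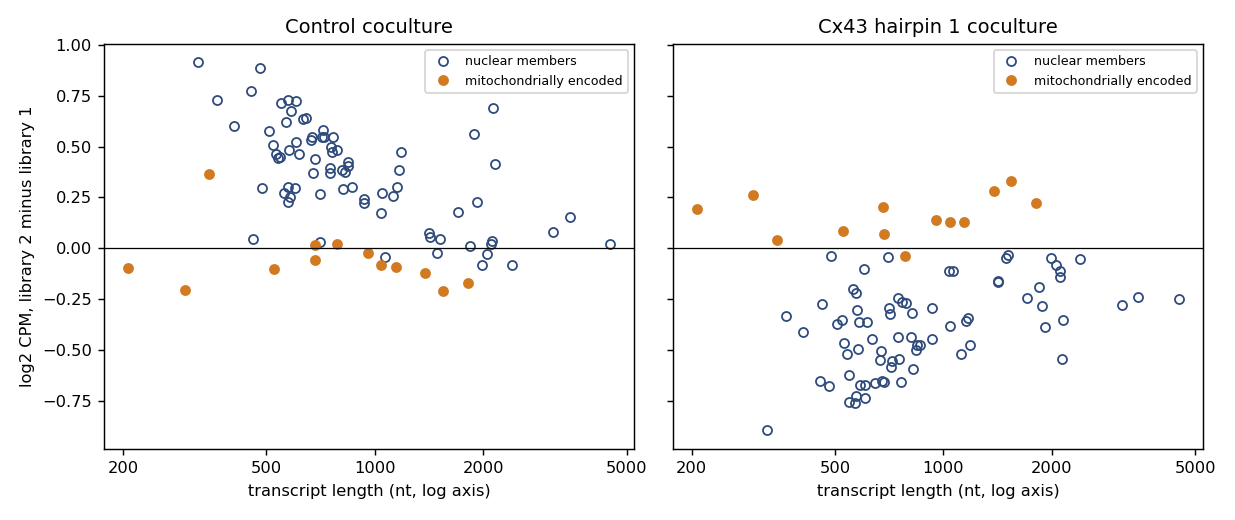
Log2 CPM of library 2 minus library 1 against transcript length on a log axis, for nuclear (open) and mitochondrially encoded (filled) members, in the control coculture and hairpin 1. Short nuclear members lie near 0.50 in the control coculture and near -0.48 in hairpin 1, while the mitochondrially encoded members have medians of -0.09 and 0.14.

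The isoforms present were those of most tissues. COX6A1 and COX6B1, small subunits of complex IV, had 86.4 to 197 CPM and 81.6 to 191 CPM, and COX7A2 had 90.1 to 231 CPM. Their counterparts for muscle and testis were near the floor: COX7A1 reached at most 0.12 CPM, COX6B2 at most 0.09 and COX8C at most 0.03, where 3 counts are worth 0.0612 to 0.0785 CPM by library. COX6A2 had no count in any library, which allows up to 3 counts in each. NDUFA4L2, the hypoxia-inducible relative of NDUFA4, reached at most 0.21 CPM, beside 97.2 to 201 CPM for NDUFA4. NDUFA7, NDUFB8 and SDHD each have a second entry under the filter, and both entries of UQCR11 were tested; counts of such paired entries are uncertain.

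Few nuclear members passed the test in coculture. Of 76 tested, 0 were called higher and 1, ATP5S, lower, against 8.74% and 2.93% of all tested genes. The median log2 difference was -0.17, beside -0.00 over all tested genes, and the 42 members of up to 800 nt had -0.20, beside -0.15 over all tested genes of that length. Without control coculture library 1 and hairpin 1 library 2 the nuclear median was 0.02. These 2 libraries were picked because short nuclear members were low in them, so a higher median followed from the choice. With the length offset the nuclear median was -0.06. ATP5S, which encodes coupling factor B of the ATP synthase rather than a core subunit, had 19.2 and 20.05 CPM in monoculture and 15.5 and 16.1 in the control coculture (log2 difference -0.31, SE 0.08, adjusted p = 0.0408). Its call was lost without any library outside hairpin 1 (adjusted p up to 0.217). The next nuclear members by p were NDUFC2 (-0.32, adjusted p = 0.0872), NDUFS7 (-0.26, adjusted p = 0.0948) and NDUFV3 (-0.28, adjusted p = 0.102).

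With Cx43 depleted, 2 of 76 nuclear members fell against the control coculture, against 5.85% of all tested genes, and 0 rose, against 3.37%. UQCRC2, a core protein of complex III, had 50.3 and 53.1 CPM in the control coculture, 41.3 and 36.7 with hairpin 1, and 42.9 and 42.7 with hairpin 2, after 44.6 and 44.9 in monoculture. Its log2 difference was -0.34 (SE 0.06, adjusted p = 0.0145), and no depleted library reached a control coculture library. SDHA, the flavoprotein of complex II that oxidizes succinate, had 50.2 and 51.5 CPM in the control coculture, 42.2 and 39.1 with hairpin 1, and 47.5 and 46.5 with hairpin 2, after 54.4 and 54.8 in monoculture. Its log2 difference was -0.22 (SE 0.06, adjusted p = 0.0482), again without overlap. Both genes have transcripts of over 1200 nt, 1415 nt for UQCRC2 and 2108 nt for SDHA. The nuclear median was -0.15. It was 0.06 without control coculture library 2, whose nuclear sum was the higher of that group (11076 beside 8392 CPM), so the value depends on which library is kept. The 42 members of up to 800 nt also had -0.15, beside -0.11 over all tested genes of that length, and the 6 of over 2000 and up to 3000 nt had -0.19, beside -0.01. UQCRC2 lost its call without either library of the control coculture or of hairpin 2 (adjusted p up to 0.163). SDHA lost it without any 1 of the libraries other than hairpin 1 library 1 (adjusted p up to 0.297), and under 7 of 9 other settings.

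The count of nuclear members depended on which libraries were in the fit. Without hairpin 1 library 1 it was 11, without control coculture library 1 and hairpin 1 library 2 together it was 20 lower and 0 higher, with a median of -0.22, and with the length offset it was 7 lower and 2 higher, with a median of -0.06. The share of all tested genes called, 9.22% with all libraries, was 14.6%, 10.1% and 16.5% in these 3 fits. The 2 libraries left out together were chosen for their low values of these members. By hairpin, SDHA (-0.32, adjusted p = 0.0254) and UQCRC2 (-0.41, adjusted p = 0.0166) fell with hairpin 1 and NDUFV3 (-0.43, adjusted p = 0.048) with hairpin 2. All 3 calls were lost without either control coculture or either hairpin 2 library (adjusted p up to 0.295), those of SDHA and NDUFV3 also without either monoculture library, and those of SDHA and UQCRC2 without hairpin 1 library 2. The nuclear medians were -0.26 with hairpin 1 and -0.02 with hairpin 2, and 0.23 for hairpin 2 minus hairpin 1. Across complexes the hairpin 1 median ran from -0.19 in complex V to -0.45 in complex IV, whose tested members are all short.

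**Figure D4:**
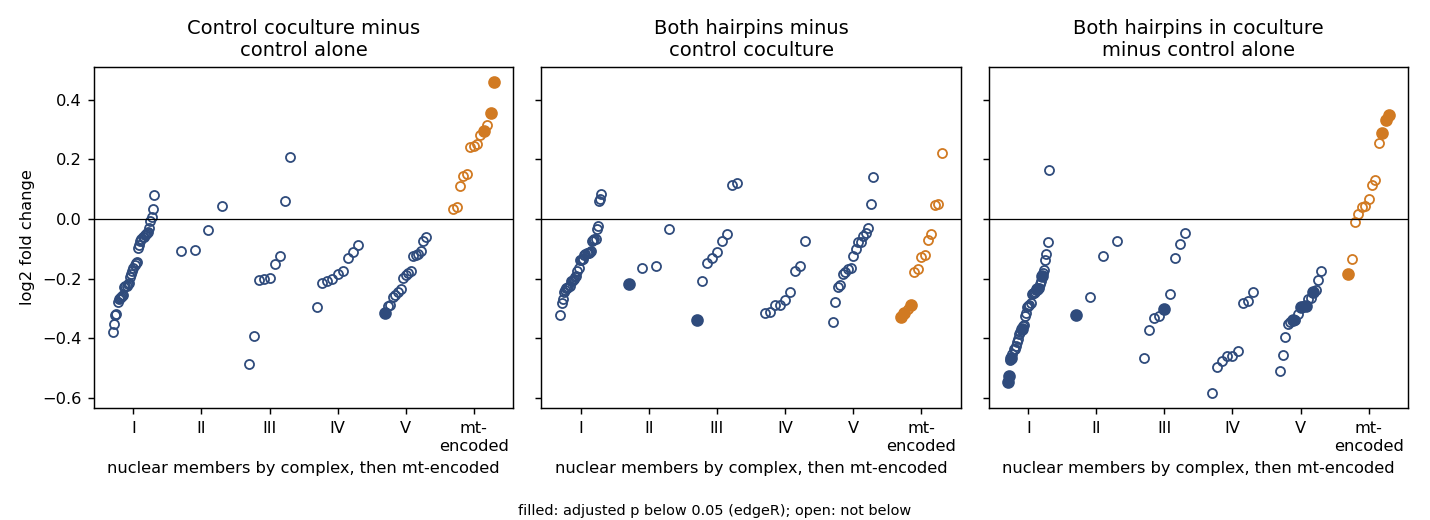
Log2 fold changes of the nuclear members by complex and of the mitochondrially encoded members, in 3 comparisons, with filled points for an adjusted p below 0.05. Mitochondrially encoded members lie above 0 in coculture (median 0.25), and nuclear members lie mostly below 0 in each comparison (medians -0.17, -0.15 and -0.29).

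Most nuclear calls came from depleted cocultures set against the control monoculture. Of 76 nuclear members, 12 were lower and 0 higher, against 6.34% and 10.8% of all tested genes, and 75 had a negative log2 difference (median -0.29). The 42 of up to 800 nt had a median of -0.34, beside -0.25 over all tested genes of that length, and the 6 of over 2000 and up to 3000 nt had -0.26, beside 0.01. Among the 12 were the complex I subunits NDUFV1, NDUFV3, NDUFS3, NDUFS7 and NDUFA11, SDHA of complex II, the iron-sulfur subunit UQCRFS1 of complex III, the catalytic core subunits ATP5A1 and ATP5B and the rotor stalk subunit ATP5D of complex V, and ATP5SL, named after ATP5S. NDUFV1, NDUFS3 and NDUFS7 belong to the arm of complex I that binds NADH and carries the iron-sulfur clusters. None of the 9 tested nuclear members of complex IV was called, although their median of -0.46 was the lowest of the 5 complexes.

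NDUFV3, a small subunit of the NADH-binding arm with a long annotated transcript, kept its call more often than any other nuclear member. It stood at 36.3 and 36.5 CPM in monoculture, 29.2 and 30.9 in the control coculture, 30.6 and 25.1 with hairpin 1, and 21.7 and 23.0 with hairpin 2. All 6 coculture libraries lay below both monoculture libraries, with hairpin 2 lowest. Its log2 difference between depleted cocultures and control monoculture was -0.55 (SE 0.08, adjusted p = 0.00414), and it was called in all 8 fits that left out 1 library (-0.62 to -0.48) and under all 9 other settings. NDUFS7, an iron-sulfur subunit, had 59.9 and 60.0 CPM in monoculture and 45.4, 41.96, 52.5 and 46.3 in the depleted libraries (-0.37, SE 0.08, adjusted p = 0.0139). SDHA had a log2 difference of -0.32 (SE 0.06, adjusted p = 0.00824). ATP5B, the most abundant of the 12 at 504.5 CPM on average, went from 555 and 581 CPM in monoculture to 476, 418, 482 and 477 (-0.29, SE 0.06, adjusted p = 0.0184). Every call other than that of NDUFV3 was lost without either monoculture library (adjusted p up to 0.279 over the fits that left out 1 library), and 10 of the 11, SDHA excepted, also without hairpin 2 library 2. ATP5A1, ATP5B, NDUFS3, NDUFV1, UQCRFS1 and NDUFA11 were among those that lost theirs without hairpin 2 library 1 too, and UQCRFS1 and NDUFA11 among those that lost theirs without hairpin 1 library 2. The count of 12 was 1 without either monoculture library, 5 without hairpin 2 library 1, 2 without its library 2, 53 without hairpin 1 library 1, and 40, all lower, without the 2 libraries low in short members. The share of all tested genes called lower, 6.34% with all libraries, moved too: it was 0.981% and 2.28% without a monoculture library, 2.50% and 1.41% without library 1 or 2 of hairpin 2, 13.5% without hairpin 1 library 1 and 11.1% without the 2 libraries.

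Over the 4 groups at once, 8 of 76 nuclear and 5 of 13 mitochondrially encoded members differed, against 15.4% of all tested genes. The 5 were MT-CO2, MT-ND2, MT-CO3, MT-CYB and MT-ATP6. The 8 were NDUFV3, SDHA, UQCRC2, ATP5SL, NDUFS7, ATP5D, NDUFS3 and ATP5B, with NDUFV3 having the smallest adjusted p (0.00987). Without either monoculture library, or either of hairpin 2, the nuclear count was 0 and the mitochondrial count was 0, while 5.04% to 5.99% of all tested genes were called.

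**Figure D5:**
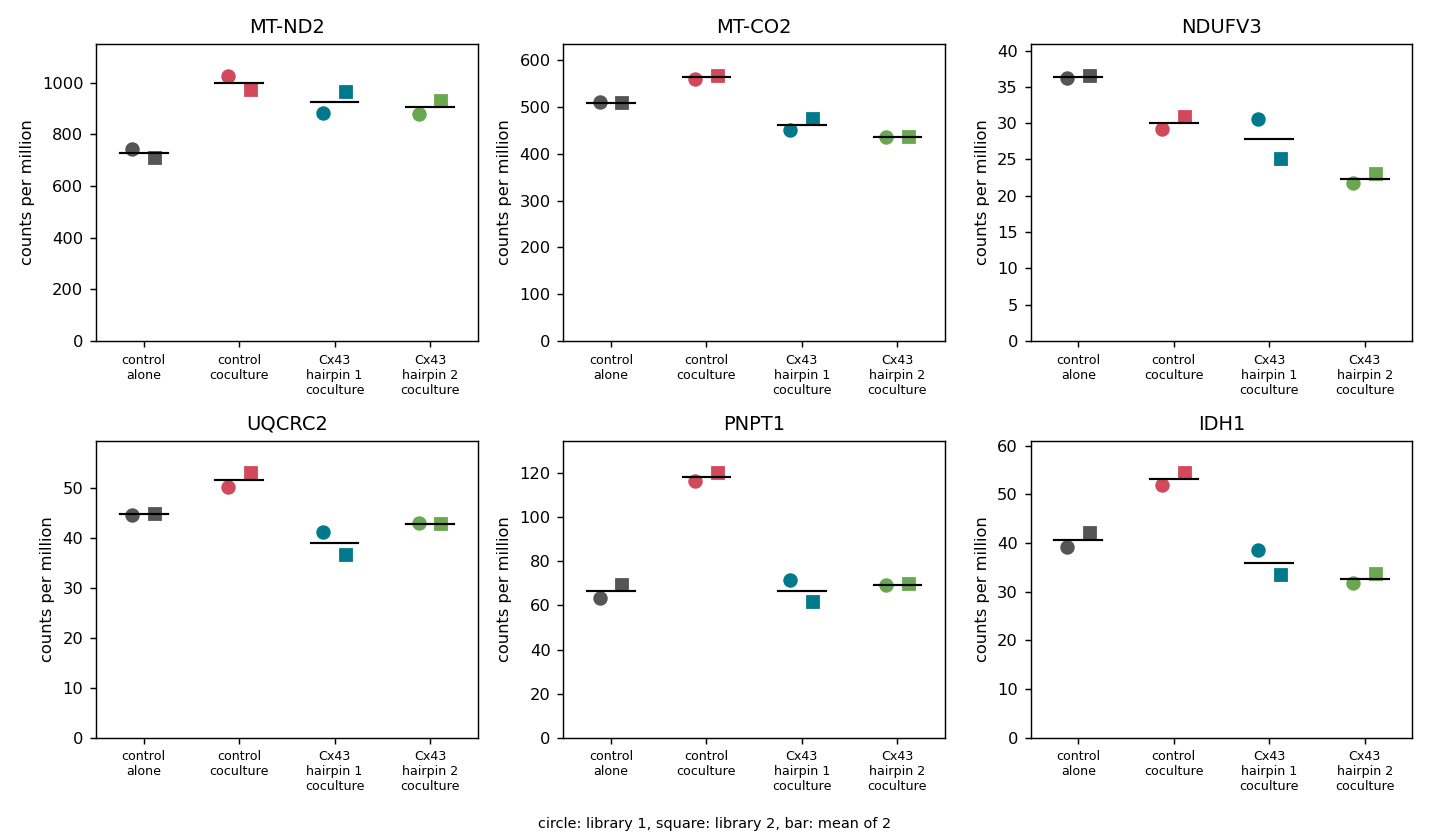
CPM of MT-ND2, MT-CO2, NDUFV3 and UQCRC2, and of PNPT1 and IDH1 from related pathways, with each library as a point and the mean of 2 as a bar. MT-ND2 is higher in all 6 coculture libraries than in monoculture, NDUFV3 is lower in all of them, and MT-CO2, UQCRC2, PNPT1 and IDH1 are highest in both control cocultures.

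The promoters of nuclear members were searched for motifs of their known regulators. RefSeq promoters (GRCh38.p14, 250 bases before to 50 after the start) matched 61 of the 76 tested nuclear members by current symbol. The NRF1-type motif GCGCNTGCG, on either strand, was in 21 of them (34.4%), beside 14.5% of 11449 promoters of tested genes. The YY1 core AAGATGGC was in 11 (18.0%, beside 5.11%), and the ETS core CCGGAAGT, which GABP binds, in 9 (14.8%, beside 8.35%); 32 of the 61 held at least 1 of these 3 (52.5%, beside 24.9%). The interferon-stimulated response element core GAAANNGAA was in 5 (8.20%, beside 6.36%). CCAAT was in 20 (32.8%, beside 36.3%) and TATAAA in 6 (9.84%, beside 5.80%). All were sought on both strands. These shares describe letters in a window and were not tested.

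The promoters of 3 nuclear members named above are printed because they hold different motifs, with capitals for every match to the 6 motifs; no matches overlap. SDHA, at chr5:218070-218369 (plus strand), holds the NRF1-type motif 4 times, in its reverse complement. NDUFS7, at chr19:1383657-1383956 (plus strand), holds the YY1 core just after its start and the NRF1-type motif 1 time. NDUFV3, at chr21:42893059-42893358 (plus strand), holds CCAAT 2 times in reverse complement and none of the NRF1, YY1 and ETS motifs.
SDHA: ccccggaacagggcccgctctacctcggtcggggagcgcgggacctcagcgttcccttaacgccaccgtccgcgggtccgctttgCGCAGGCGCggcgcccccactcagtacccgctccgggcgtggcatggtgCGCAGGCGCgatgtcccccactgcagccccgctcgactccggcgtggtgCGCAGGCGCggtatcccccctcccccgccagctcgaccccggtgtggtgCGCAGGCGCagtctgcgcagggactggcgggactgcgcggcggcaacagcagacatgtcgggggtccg
NDUFS7: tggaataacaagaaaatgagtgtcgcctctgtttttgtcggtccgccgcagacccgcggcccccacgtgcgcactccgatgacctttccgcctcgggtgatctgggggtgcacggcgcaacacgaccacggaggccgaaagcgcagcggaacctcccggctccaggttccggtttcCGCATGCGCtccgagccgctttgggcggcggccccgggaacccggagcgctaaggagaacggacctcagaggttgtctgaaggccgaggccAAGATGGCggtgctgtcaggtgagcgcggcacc
NDUFV3: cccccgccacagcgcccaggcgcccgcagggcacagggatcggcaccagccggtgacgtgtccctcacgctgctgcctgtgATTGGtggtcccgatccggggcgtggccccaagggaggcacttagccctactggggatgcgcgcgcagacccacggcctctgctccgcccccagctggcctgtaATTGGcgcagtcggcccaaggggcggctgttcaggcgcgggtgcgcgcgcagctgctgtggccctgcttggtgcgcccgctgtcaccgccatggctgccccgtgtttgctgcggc

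Genes of related pathways outside the symbol rule were counted in lists. PNPT1 encodes polynucleotide phosphorylase, which degrades RNA inside mitochondria and is also known as an interferon-inducible gene. It stood at 63.4 and 69.4 CPM in monoculture, 116 and 120 in the control coculture, 71.7 and 61.5 with hairpin 1, and 69.1 and 69.5 with hairpin 2. It rose by a log2 difference of 0.83 (SE 0.09, adjusted p = 0.000406) in coculture and fell by 0.80 (SE 0.07, adjusted p = 0.000249) on depletion, and it was called in all 8 fits that left out 1 library in both comparisons. Of the 32 tested genes for mitochondrial DNA upkeep, transcription and RNA processing, 1 rose and 1 fell in coculture. The shares over all tested genes were 8.74% and 2.93%. On depletion 0 rose and 1 fell, against 3.37% and 5.85%. Besides PNPT1 the coculture call was MTERFD2, lower (-0.28, adjusted p = 0.0381), which was lost without any library outside hairpin 1. None besides PNPT1 was called on depletion. TFAM, the factor that packs and transcribes mitochondrial DNA, was not called in coculture (-0.16, adjusted p = 0.189) or on depletion (0.15, adjusted p = 0.171).

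Among 22 tested genes listed for the tricarboxylic acid cycle, pyruvate entry and related enzymes, 2 rose in coculture and 5 fell on depletion, against 8.74% and 5.85% of all tested genes, IDH1 and IDH2 being in both counts. IDH1, the cytosolic isocitrate dehydrogenase that makes NADPH and is not itself an enzyme of the cycle, had 39.1 and 41.97 CPM in monoculture, 51.9 and 54.5 in the control coculture, 38.5 and 33.5 with hairpin 1, and 31.8 and 33.5 with hairpin 2. It fell by 0.63 (SE 0.07, adjusted p = 0.00121) on depletion, in all 8 fits that left out 1 library, and rose by 0.39 (SE 0.08, adjusted p = 0.0191) in coculture, a call lost without either monoculture library or of the control coculture (adjusted p up to 0.146). IDH2, its mitochondrial counterpart, rose by 0.27 in coculture (adjusted p = 0.0356, lost without any library outside hairpin 1, up to 0.230) and fell by 0.32 on depletion (adjusted p = 0.0119), SUCLG2 of succinyl-CoA ligase by 0.34 (adjusted p = 0.00808), PC, pyruvate carboxylase, by 0.40 (adjusted p = 0.0481) and IDH3G by 0.22 (adjusted p = 0.0462). Of these, SUCLG2 lost its call without control coculture library 2 only (adjusted p = 0.0987), and IDH2, PC and IDH3G lost theirs without either library of the control coculture or of hairpin 2 (adjusted p up to 0.220). IDH3G also lost its call without either monoculture library, without hairpin 1 library 2 and under 7 of 9 other settings, and the coculture call of IDH2 was lost under 5 of 9.

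Of 43 tested assembly factors, 0 rose and 3 fell in coculture, against 8.74% and 2.93% of all tested genes, and 2 rose and 0 fell on depletion, against 3.37% and 5.85%. LYRM7, a chaperone for the iron-sulfur subunit of complex III, had 45.2 and 46.6 CPM in monoculture, 36.8 and 37.0 in the control coculture, and 45.6 to 48.7 in the depleted libraries. It fell by 0.31 (SE 0.06, adjusted p = 0.0127) in coculture and was higher on depletion by 0.35 (SE 0.05, adjusted p = 0.00579). COX19, which serves copper delivery to complex IV, followed the same order (-0.45, adjusted p = 0.0191, then 0.40, adjusted p = 0.0238), and TTC19 of complex III fell in coculture (-0.26, adjusted p = 0.0336). The 3 coculture calls were lost without either monoculture library or control coculture library 1 (adjusted p up to 0.145), those of LYRM7 and TTC19 also without its library 2, and that of TTC19 without either hairpin 2 library. Both depletion calls were lost without either control coculture library (adjusted p up to 0.162), that of COX19 also without either hairpin 2 library. The control coculture libraries are shared by both comparisons, so the return is not an independent result.

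Of 12 tested regulators of respiratory genes, 3 rose in coculture, HIF1A (0.52, SE 0.06, adjusted p = 0.00112), MYC (0.47, SE 0.06, adjusted p = 0.00117) and PPARGC1A (0.48, SE 0.10, adjusted p = 0.0177), and 0 fell, against 8.74% and 2.93% of all tested genes. PPARGC1A encodes PGC-1alpha, a coactivator of respiratory genes, and its level was low, 4.29 and 4.03 CPM in monoculture against 5.66 and 5.98 in the control coculture; its call was lost without either library of these 2 groups (adjusted p up to 0.109). On depletion 1 rose and 1 fell, against 3.37% and 5.85% of all tested genes. MYC fell by 0.37 (SE 0.05, adjusted p = 0.0031) and GABPB2, a subunit of the factor GABP, rose by 0.47 (SE 0.10, adjusted p = 0.0232), the latter being lost without either library of the control coculture or of hairpin 2 (adjusted p up to 0.173). HIF1A and MYC kept their calls in all 8 fits that left out 1 library, MYC in both comparisons.

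Of 11 tested subunits and carriers with other symbols, among them CYC1, CYCS and COX4I1, 0 were called in coculture. On depletion 0 rose and 1 fell, C15orf48, a relative of NDUFA4. Over all tested genes 8.74% were called higher and 2.93% lower in coculture, and 3.37% higher and 5.85% lower on depletion. C15orf48 had 4.93 and 7.40 CPM in monoculture, 8.33 and 11.3 in the control coculture, 5.64 and 4.47 with hairpin 1, and 6.82 and 7.30 with hairpin 2 (-0.71, SE 0.18, adjusted p = 0.042), a call lost without control coculture library 2, hairpin 1 library 2 or either library of hairpin 2 (adjusted p up to 0.311). Against the same shares, 0 of 11 tested carriers and uncoupling proteins rose in either comparison, 1 fell in coculture and 1 fell on depletion. SLC25A4, the adenine nucleotide carrier of muscle and heart, fell in coculture (-0.44, adjusted p = 0.0285). SLC25A1, the citrate carrier, fell on depletion (-0.30, adjusted p = 0.0142). The first call was lost without any library outside hairpin 1 (adjusted p up to 0.175), and the second without either library of the control coculture or of hairpin 2 (adjusted p up to 0.117).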

How the data were processed

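The 8 libraries held TRAP RNA, prepared with a TruSeq v2 kit per the labels' protocols. Per the submitters' processing notes, TopHat2, HTSeq, DESeq2 and the build hg19 were used, without versions. Which annotation and counting mode were used is not given in the sources used here. The deposited values are whole-number counts per gene, although the table is called normalized; they were used as unnormalized counts. Counter entries that name no gene (non-unique, ambiguous, outside features, unaligned) were left out.

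The 15806 genes whose mean count reached 10 were tested in edgeR 4.0.16 (R 4.3.3) with TMM factors of 0.975 to 1.03 and the quasi-likelihood F test, 4 groups in 1 fit without covariates. The common biological coefficient of variation was 7.67%. P-values were adjusted by Benjamini-Hochberg over all tested genes, with calls at 0.05. A difference is on the log2 scale of the fit, and CPM use TMM-scaled library sizes. "Depletion" is the average of the hairpin groups less the control coculture. Transcript lengths are GENCODE 29 medians of protein-coding transcripts. Non-overlap means that every library of 1 group lies beyond every library of the other.

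The members and lists were chosen with earlier results of these data known. Named genes were every mitochondrially encoded member, called nuclear members by p (the 4 smallest where fewer than 4 were called), isoform families, and up to 4 called genes per list. A member counted among the calls but not named is not reported here. Alternatives were other scalings, filters, DESeq2 1.42.0, only the groups compared, a replicate block and leaving out each library. An offset by transcript length, and a fit without the 2 libraries low in short members, were added after the data were seen. Those 2 libraries were chosen on the members' own values, so changes in the members without them are not an independent result. The fits were tested on simulated data.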

Additional observations from a re-analysis of the deposited data

How the results depend on the processing

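Counts of called members depended strongly on the setting, and the cause was not tested except where stated. Without the low-count filter, which changes the genes tested and the shared spread, the nuclear counts were 17 in coculture, 13 on depletion, 35 with hairpin 1, 23 between hairpins, 60 in depleted cocultures against monoculture and 63 over the 4 groups; the mitochondrial counts were 5 in coculture, 5 on depletion, 5 with hairpin 2 and 10 over the 4 groups. Of all tested genes 9.33%, 7.21%, 7.54%, 1.01%, 13.7% and 17.1% were then called in these 6 comparisons, in the nuclear order. With the filter these shares were 11.7%, 9.22%, 7.82%, 0.0316%, 17.1% and 15.4%. With hairpin 2 the share was 3.96% without the filter and 4.16% with it. DESeq2 gave nuclear counts of 0 in coculture, 1 on depletion, 5 with hairpin 1, 20 for depleted cocultures against monoculture and 19 over the 4 groups, and called 11.3%, 10.8%, 9.65%, 18.5% and 22.4% of all genes it tested in these comparisons. With RLE or upper-quartile scaling the nuclear depletion count was 1, with 9.47% and 9.07% of all tested genes called. With RLE, or at a mean count of at least 100, the nuclear hairpin 2 count was 0, with 4.18% and 5.53% called. With only the groups compared in the fit, the nuclear counts were 1 on depletion and 0 with hairpin 1, and the mitochondrial count was 0 with hairpin 1, with 6.71% and 1.47% of all tested genes called on depletion and with hairpin 1.

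Correlations of same-numbered deviations ran from -0.36 to 0.18. With 2 libraries per group they cannot decide whether the replicate numbers pair the samples. With the replicate numbers as a block, nuclear counts were 0 in coculture, 1 on depletion, 0 with hairpin 1 and 0 with hairpin 2. They were 7 for depleted cocultures against monoculture and 1 over the 4 groups. Mitochondrial counts were 1 in coculture, 2 on depletion, 0 with hairpin 1 and 1 with hairpin 2. They were 2 for depleted cocultures against monoculture and 0 over the 4 groups. Of all tested genes the block left 7.34% called in coculture, 4.43% on depletion, 2.82% with hairpin 1, 2.02% with hairpin 2, 9.5% for depleted cocultures against monoculture and 6.28% over the 4 groups.

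Without the 2 libraries low in short members, nuclear counts were 0 in coculture, 20 on depletion, 13 with hairpin 1, 17 with hairpin 2, 40 for depleted cocultures against monoculture and 32 over the 4 groups, and 5 mitochondrial members were called in coculture; of all tested genes 12%, 10.1%, 5.77%, 7.97%, 24.3% and 23.1% were called in that order. With the length offset, nuclear counts were 2 in coculture, 9 on depletion, 8 with hairpin 1, 2 with hairpin 2 and 15 over the 4 groups; mitochondrial counts were 0 on depletion, 0 with hairpin 1, 0 with hairpin 2 and 2 over the 4 groups, and MT-CO2 in depleted cocultures against monoculture had the opposite sign (0.069). Of all tested genes the offset left 18.6% called in coculture, 16.5% on depletion, 13.6% with hairpin 1, 9.82% with hairpin 2 and 25.6% over the 4 groups. Whether the offset suits the mitochondrially encoded members was not tested.

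Leaving out 1 library at a time, where a lone library is assumed to vary like the other groups, nuclear counts ranged from 0 to 2 in coculture, 0 to 11 on depletion, 0 to 23 with hairpin 1, 0 to 2 with hairpin 2 and 1 to 53 for depleted cocultures against monoculture, and 0 to 35 over the 4 groups. Mitochondrial counts ranged from 0 to 6 in coculture, 0 to 5 on depletion, 0 to 3 with hairpin 1, 0 to 5 with hairpin 2, 0 to 5 for depleted cocultures against monoculture and 0 to 11 over the 4 groups. Between hairpins both stayed at 0. The log2 ratio of sums ranged from 0.19 to 0.68 for coculture and -0.26 to 0.23 for depletion. Among all tested genes the share called ranged from 4.67% to 16.4% in coculture, 2.19% to 14.6% on depletion, 1.78% to 15.2% with hairpin 1, 0.949% to 6.94% with hairpin 2, 3.63% to 29.9% for depleted cocultures against monoculture and 5.04% to 30.5% over the 4 groups. The part of depth was not tested.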
